A study of Homo sapiens with 6 samples.

Results

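The genes of cystine uptake and of the glutathione cycle were described in LM3 cells, an established human hepatocellular carcinoma (HCC) cell line, with and without knockdown of the zinc finger protein ZNF706. They were 10 genes chosen by name, each found once among the 33007 genes of the deposited table. SLC7A11 and SLC3A2 encode the cystine transporter, GCLC, GCLM and GSS make glutathione, GSR regenerates it, GPX4 and GPX1 spend it on peroxides, and CBS and CTH make cysteine from homocysteine. All 10 passed the filter on low counts. The 3 control samples were LM3 cells labelled wild type and control, described by the study as the matching vector control. The 3 knockdown samples were LM3 cells of the same label with stable ZNF706 knockdown, which the study's methods describe as lentiviral pLKO.1 hairpins followed by puromycin selection. Which hairpin was sequenced is not given in the sources used here, so an effect of the hairpin apart from ZNF706 cannot be told apart from the knockdown. The labels name total RNA, and the selection of RNA and the strand are not given in the sources used here. The control libraries held 62684076, 64713764 and 63054445 counts and the knockdown libraries 68548419, 65861994 and 69057423. Nothing says that the 3 samples of a group were separate cultures, so p-values measure only the spread between these samples, which may be technical.

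Cystine is carried into the cell in exchange for glutamate by a transporter of a light chain, SLC7A11, and a heavy chain, SLC3A2. It is reduced to cysteine, which glutamate-cysteine ligase (catalytic subunit GCLC, modifier subunit GCLM) joins to glutamate, and glutathione synthetase (GSS) adds glycine. Glutathione feeds the selenoenzyme GPX4, which reduces lipid peroxides in membranes and so holds back ferroptosis, an iron-dependent form of cell death. Liver cells can also make cysteine by transsulfuration, through CBS and then CTH.

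ZNF706, the target of the hairpin, had 51.9, 55.1 and 54.7 CPM (counts for each 1e6 of a library, scaled by the TMM method) in control and 33.5, 30.8 and 32.8 CPM in knockdown cells, a change of -39.9% with no overlap between the groups (adjusted p = 3.7e-05, edgeR). In the quasi-likelihood test of edgeR, adjusted by Benjamini and Hochberg's method, 2 of the 10 genes, SLC7A11 and GSR, were lower in the knockdown with an adjusted p below 0.05, and none was higher. Over all 18390 genes tested, 12.4% were called lower and 10.4% higher, 22.8% in all, so the share of these 10 genes that was called was near that of all genes. With counts scaled by library size alone, 2742 genes were called higher and 1518 lower, against 1906 and 2286 with TMM scaling, a shift of the median gene from 0.010 to 0.063 on the log2 scale. At an unadjusted p below 0.05, 3 were lower and 0 higher, against 17.8% and 16.9% of all genes tested. DESeq2 called 3 lower and 0 higher, against 15.7% and 13.9% of the 14959 genes it gave an adjusted p. Limma on FPKM called 1 lower and 0 higher, against 13.5% and 20.0% of 11399 genes. The study's own criteria, applied to the same fit (p below 0.05 with a log2 fold change past 0.3 either way), were met by 0 of the 10, against 15.5% of all genes tested (9.61% higher and 5.88% lower). SLC7A11 fell just short of the limit at -0.29, and met these criteria in 3 of the 6 fits with a sample left out (without control replicate 2, control replicate 3 or knockdown replicate 1). The study used DESeq2, which gave -0.28 here. It reports SLC7A11 among the genes shared by its RNA-seq and ChIP-seq results. By qRT-PCR and Western blot it also reports less SLC7A11 after ZNF706 knockdown in LM3 cells and a further HCC line. With a mean count of at least 50 asked for, edgeR called 2 of the 10 lower and 0 higher, against 16.6% and 14.9% of 14132 genes. The median absolute log2 fold change was 0.09 for the 10 genes and 0.20 for all genes tested. The latter include genes with few counts and wide errors, and the medians were not matched for abundance. In these bulk samples, fewer cells expressing a gene and less RNA per cell cannot be told apart.

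**Figure D1:**
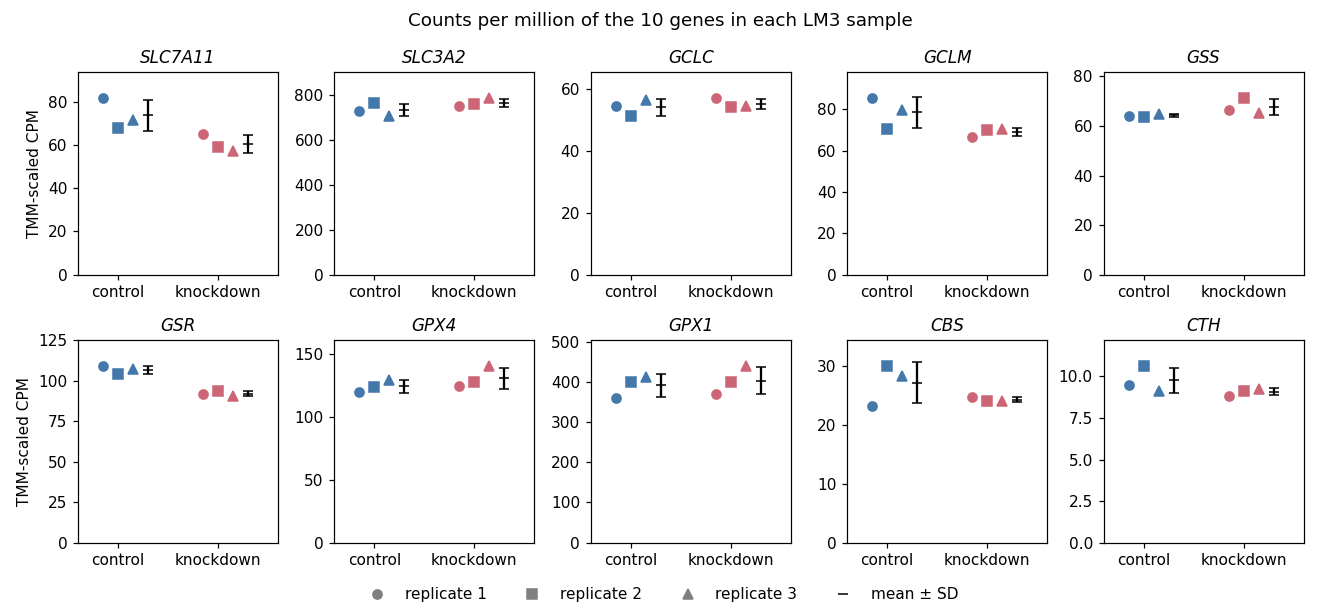
TMM-scaled CPM of the 10 genes, with 3 control (blue) and 3 knockdown (red) samples in each panel. The symbol gives the replicate number, the black bars are the mean ± SD, and each axis starts at 0. SLC7A11 and GSR lay lower in every knockdown sample than in every control sample, and for most other genes the groups overlapped or lay close.

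The light chain of the cystine transporter fell, and its heavy chain was not called. SLC7A11 (ENSG00000151012, chromosome 4, 138164097 to 138242349 in GRCh38) was at 81.5, 67.7 and 71.6 CPM in the control samples and at 64.9, 58.9 and 57.1 CPM in the knockdown samples. The groups did not overlap, but control replicate 1 stood above the others and the distance between the lowest control and the highest knockdown sample was small. The fold change was -0.29 on the log2 scale (95% confidence interval -0.45 to -0.13, adjusted p = 0.017 by edgeR), which is a change of -18.1% (interval -26.6% to -8.56%). SLC7A11 was also called lower by DESeq2 (log2 fold change -0.28, adjusted p = 0.00086) and by edgeR with library size scaling (-0.23, adjusted p = 0.045). In edgeR the call was lost without knockdown replicate 2 (adjusted p = 0.074) or knockdown replicate 3 (adjusted p = 0.060). It was also lost in edgeR without a filter on low counts (adjusted p = 0.067) and in limma on FPKM (adjusted p = 0.066). SLC7A11 had the lowest GC content of the 10 genes (35.4% in the longest transcript, against a median of 48.7% over genes tested), and with each library's trend on GC content removed its log2 fold change was -0.16 (adjusted p = 0.096, edgeR).

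SLC3A2 (ENSG00000168003, chromosome 11, 62856102 to 62888875), which brings several amino acid transporters to the cell surface, was at 728.9, 763.2 and 707.5 CPM in the control samples and at 748.7, 759.1 and 784.4 CPM in the knockdown samples. The groups overlapped in CPM but not in FPKM. Its log2 fold change was 0.06, with an interval from -0.02 to 0.14 (adjusted p = 0.27, edgeR). With scaling by library size alone it was called higher (log2 fold change 0.11, adjusted p = 0.043, edgeR).

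Compared per length, the light chain mRNA was far less abundant than the heavy chain mRNA. FPKM, which the authors scaled to the length of a gene and the size of a library, were between 5.26 and 7.35 for SLC7A11 and between 117.33 and 135.41 for SLC3A2. The ratio of SLC7A11 to SLC3A2 FPKM was 0.0597, 0.0474 and 0.0540 in control cells and 0.0464, 0.0414 and 0.0388 in knockdown cells. Every knockdown ratio was below every control ratio, a difference of -0.35 on the log2 scale (two-sided exact permutation test, p = 0.1, the smallest that 3 samples against 3 can give). The genes differ in GC content (35.4% and 57.4%), and with the GC trend removed their log2 fold changes differed by -0.16. SLC3A2 has other light chain partners, and of these SLC7A5, a carrier of large neutral amino acids, had a mean of 457 FPKM over the 6 samples and SLC7A6 a mean of 11.1 FPKM. SLC7A11 came next with 6.08 FPKM, while SLC7A8 (0.365 FPKM), SLC7A7 (0.0717 FPKM) and SLC7A10 (0.0050 FPKM) were at or near 0. Neither SLC7A5 (log2 fold change 0.04, adjusted p = 0.33, edgeR) nor SLC7A6 (0.03, adjusted p = 0.66, edgeR) was called.

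The 5 genes with a profile most like that of SLC7A11 were sought among 9473 tested genes with at least 10 CPM on average. Likeness was the root mean square difference between log2 CPM profiles over the 6 samples, each centred on its mean. The nearest were DNMBP (0.037), MINDY2 (0.043), RAB30 (0.044), TENT4B (0.045) and AMOTL1 (0.047). Of the other 9 genes described here, GSR (0.092, rank 488) and GCLM (0.10, rank 728) lay nearest to SLC7A11 and GPX1 (0.248, rank 7420) farthest, with CTH below the CPM limit.

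**Figure D2:**
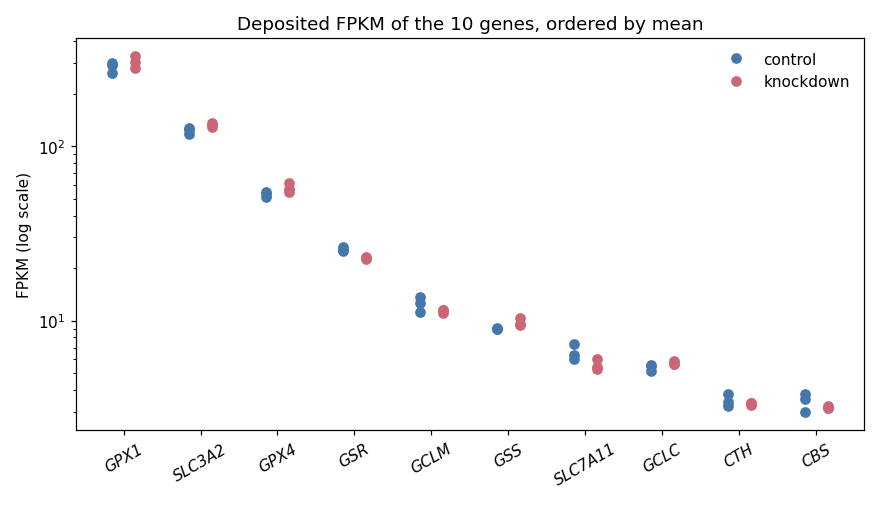
Deposited FPKM of the 10 genes on a log axis, ordered by the mean over the 6 samples, with control samples in blue and knockdown samples in red. The genes span from GPX1 (264.02 to 330.28 FPKM) to CBS (2.98 to 3.80 FPKM).

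By level, the order from high to low FPKM was GPX1 (mean 294), SLC3A2 (127), GPX4 (55.4), GSR (24.2), GCLM (11.9), GSS (9.37), SLC7A11 (6.08), GCLC (5.55), CTH (3.41) and CBS (3.32). The ranges over the 6 samples overlapped for the neighbours SLC7A11 and GCLC and for CTH and CBS, and for no other pair of neighbours in this order. The level of CBS holds only the reads assigned to it and not to its near-identical copy CBSL. The FPKM of CBS and CBSL together averaged 6.23 (5.50 to 7.11), a range that overlaps those of SLC7A11 and GCLC, so the last place of CBS depends on that split.

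Of the genes of glutathione synthesis, none was called by edgeR with all 6 samples, while GCLM was called lower by DESeq2 (adjusted p = 0.027) and by edgeR without control replicate 2. GCLC (ENSG00000001084, chromosome 6, 53497341 to 53616970) was at 54.6, 51.1 and 56.4 CPM in the control samples and at 56.9, 54.1 and 54.4 CPM in the knockdown samples. The groups overlapped in CPM, though not in FPKM, and the log2 fold change was 0.03 (interval -0.08 to 0.13, adjusted p = 0.72, edgeR). GCLM (ENSG00000023909, chromosome 1, 93885199 to 93909456) was at 85.4, 70.5 and 79.9 CPM in the control samples and at 66.9, 70.0 and 70.3 CPM in the knockdown samples. The groups did not overlap, by a margin of under 1 CPM between control replicate 2 and knockdown replicate 3, and in FPKM they did overlap.

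GCLM had a log2 fold change of -0.19 (interval -0.33 to -0.05, adjusted p = 0.058, edgeR). Without control replicate 2 it was -0.26 (adjusted p = 0.0095, edgeR), and without control replicate 1 it was -0.13 (adjusted p = 0.17, edgeR). GCLM was called in 1 of the 6 fits with a sample left out. Its GC content was 37.3%, next to that of SLC7A11, and with the GC trend removed its log2 fold change was -0.06 (adjusted p = 0.54, edgeR). The ratio of GCLC to GCLM FPKM was 0.402, 0.456 and 0.444 in control cells and 0.535, 0.486 and 0.486 in knockdown cells. Every knockdown ratio was above every control ratio, by 0.21 on the log2 scale (two-sided exact permutation test, p = 0.1, again the smallest possible), and by 0.15 with the GC trend removed.

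GSS (ENSG00000100983, chromosome 20, 34928432 to 34956027) was at 64.1, 63.7 and 65.0 CPM in the control samples and at 66.4, 71.1 and 65.2 CPM in the knockdown samples. The groups did not overlap, as was the case for 39.4% of all genes tested, but knockdown replicate 3 lay just above control replicate 3. The log2 fold change was 0.07 (interval -0.02 to 0.17, adjusted p = 0.26, edgeR). In all, SLC7A11, GCLM and GSR were lower and GSS was higher in every knockdown sample, that is 3 of 10 genes in the first direction (19.7% of genes tested) and 1 of 10 in the second (19.7%).

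Since GCLC and GCLM encode the subunits of a single enzyme, and SLC3A2 shares its transporter with SLC7A11, the 250 bases before their RefSeq transcription starts (GRCh38.p14) are shown. Both strands were searched for the antioxidant response element TGACNNNGC, bound by NRF2, the ATF4 element TGATGNAA and the E-box CACGTG, bound by MYC. Windows running from 250 bases before to 50 after a start were used for 7 of the 10 genes, 13 windows in all, and those of SLC7A11, GSS and GSR were not used here. Capitals mark the matches, and the strand shown is that of the gene. SLC3A2 has several such starts, and only the window of the one shown held a match. That window begins at 62881449, inside the gene, which begins at 62856102.
GCLC, chr6:53545102-53545351, minus strand: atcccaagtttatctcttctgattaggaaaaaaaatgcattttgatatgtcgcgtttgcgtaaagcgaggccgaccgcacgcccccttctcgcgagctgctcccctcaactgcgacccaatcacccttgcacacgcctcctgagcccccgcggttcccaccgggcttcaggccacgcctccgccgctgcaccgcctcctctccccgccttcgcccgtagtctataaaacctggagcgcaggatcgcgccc
GCLM, chr1:93909431-93909680, minus strand: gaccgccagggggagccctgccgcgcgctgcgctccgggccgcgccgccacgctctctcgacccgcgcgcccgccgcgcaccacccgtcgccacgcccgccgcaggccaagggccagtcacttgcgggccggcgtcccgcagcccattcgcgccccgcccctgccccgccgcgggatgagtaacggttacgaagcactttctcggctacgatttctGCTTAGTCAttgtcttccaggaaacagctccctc
SLC3A2, chr11:62881449-62881698, plus strand: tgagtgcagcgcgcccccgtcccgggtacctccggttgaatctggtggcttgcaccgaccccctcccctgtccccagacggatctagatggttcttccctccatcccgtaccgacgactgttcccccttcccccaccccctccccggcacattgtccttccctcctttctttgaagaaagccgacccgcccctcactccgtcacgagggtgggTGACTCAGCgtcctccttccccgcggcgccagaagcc
The antioxidant response element matched in the GCLM window (GCTTAGTCA, read on the other strand) and the SLC3A2 window (TGACTCAGC, which also holds the AP-1 letters TGACTCA), and none of these motifs matched in the GCLC window. Over all 35116 RefSeq windows of this length, 13.3% held the antioxidant response element, 3.62% the ATF4 element and 7.26% the E-box. The SLC3A2 window also held an ATF4 element 38 bases after its start (TTACATCA, on the other strand), a CBS window held the antioxidant response element (GCGCGGTCA) and the GPX1 window an E-box. The other windows of SLC3A2 and CBS, and those of GPX4 and CTH, held none of these letters. No matches overlapped each other, and a match describes the letters only.

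GSR, glutathione reductase, showed the steadiest fall. GSR (ENSG00000104687, chromosome 8, 30678066 to 30727846) turns oxidised glutathione back to its reduced form with NADPH. It was at 109.1, 104.0 and 107.3 CPM in the control samples and at 91.7, 93.9 and 90.9 CPM in the knockdown samples. The groups were apart by more than the range within either of them. The log2 fold change was -0.21 (interval -0.29 to -0.13, adjusted p = 0.0023, edgeR), a change of -13.7% (interval -18.3% to -8.86%). It lay between -0.23 and -0.20 with each sample left out in turn, with adjusted p-values from 0.0069 to 0.012 (edgeR). With the GC trend removed it was -0.22 (adjusted p = 0.0028, edgeR), and the GC content of the gene was 48.2%, close to the median.

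**Figure D3:**
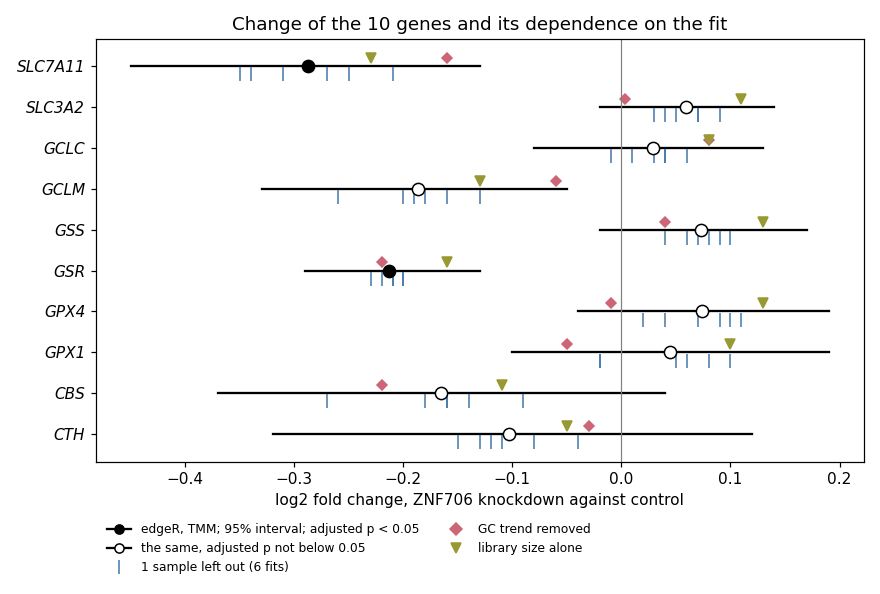
Log2 fold change of each of the 10 genes in knockdown against control (circles) with its 95% confidence interval, filled where the adjusted p was below 0.05. Ticks show the 6 fits with 1 sample left out, diamonds the fit with the GC trend removed and triangles scaling by library size alone. SLC7A11 and GCLM move toward 0 when the GC trend is removed, while GSR goes from -0.21 to -0.22.

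Neither peroxidase was called. GPX4 (ENSG00000167468, chromosome 19, 1103926 to 1106788) was at 119.3, 124.0 and 129.5 CPM in the control samples and at 124.4, 127.7 and 140.2 CPM in the knockdown samples. GPX1 (ENSG00000233276, chromosome 3, 49357176 to 49358353), the cytosolic glutathione peroxidase, was at 359.0, 400.9 and 413.2 CPM in the control samples and at 370.6, 400.0 and 439.1 CPM in the knockdown samples. The groups overlapped for both in CPM, while in FPKM every knockdown sample was above every control sample for GPX4. For both genes the lowest value was in control replicate 1 and the highest in knockdown replicate 3.

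The log2 fold change was 0.07 for GPX4 (interval -0.04 to 0.19, adjusted p = 0.35, edgeR) and 0.04 for GPX1 (interval -0.10 to 0.19, adjusted p = 0.69, edgeR). The lower bounds of these intervals stand for changes of -2.73% in GPX4 and -6.94% in GPX1. The 2 genes had the highest GC content of the 10 (62.5% and 64.2%), and with the GC trend removed their log2 fold changes were -0.01 and -0.05. GPX1P1, a pseudogene on chromosome X, took between 3.23% and 3.85% of the summed counts of GPX1 and GPX1P1 in each sample, and summing them left a log2 fold change of 0.05 (adjusted p = 0.68, edgeR).

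In transsulfuration the reading of CBS turned on its copy. CBS (ENSG00000160200, chromosome 21, 43053191 to 43076362), which joins homocysteine and serine to cystathionine, was at 23.33, 30.03 and 28.35 CPM in the control samples and at 24.8, 24.0 and 24.1 CPM in the knockdown samples. Control replicate 1 was below every knockdown sample while the other control samples were above, so the groups overlapped. The log2 fold change was -0.17 (interval -0.37 to 0.04, adjusted p = 0.24, edgeR). Without control replicate 1 it was -0.27 (adjusted p = 0.030, edgeR), and without control replicate 2 it was -0.09 (adjusted p = 0.58, edgeR). CBS was called in 1 of the 6 fits with a sample left out.

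GRCh38 also holds CBSL (ENSG00000274276, chromosome 21, 6444869 to 6468040). Of the stretches of 100 bases along the longest CBS transcript in GENCODE release 29, 84.4% occur unchanged in CBSL transcripts, so the counting could split reads between them. CBSL was at 19.0, 11.2 and 14.0 CPM in the control samples and at 11.5, 10.5 and 13.8 CPM in the knockdown samples. It was highest in the sample in which CBS was lowest, control replicate 1, where it held 44.9% of the summed counts against 27.2% to 36.4% in the other samples.

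Summed, CBS and CBSL had 2622, 2623 and 2599 counts in control cells and 2546, 2317 and 2646 in the more deeply sequenced knockdown cells. This is 42.0 ± 0.628 CPM (SD, n = 3) with the vector and 36.2 ± 1.64 CPM (SD, n = 3) with the knockdown, with no overlap. The sum fell by 0.21 on the log2 scale (adjusted p = 0.014, edgeR), a fit chosen after the values of both genes were seen. The call was lost without knockdown replicate 2 (-0.18, adjusted p = 0.069, edgeR), and with the GC trend removed the value was -0.27 (adjusted p = 0.0059, edgeR).

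**Figure D4:**
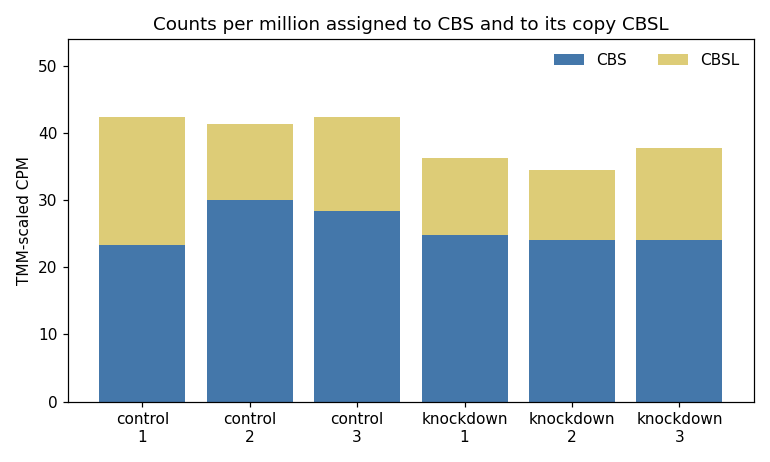
TMM-scaled CPM assigned to CBS (blue) and its copy CBSL (yellow) in each sample, stacked from 0. CBSL takes its largest share, 44.9% of the summed counts, in control replicate 1, and the stacked total averages 42.0 CPM with the vector and 36.2 CPM with the knockdown.

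CTH (ENSG00000116761, chromosome 1, 70411218 to 70439851), which releases cysteine from cystathionine, was at 9.50, 10.6 and 9.16 CPM in the control samples and at 8.86, 9.15 and 9.25 CPM in the knockdown samples. The groups overlapped. The log2 fold change was -0.10 and its interval, from -0.32 to 0.12, was the widest of the 10 genes (adjusted p = 0.51, edgeR). It was -0.04 without control replicate 2 and -0.03 with the GC trend removed (adjusted p = 0.84 and 0.86, edgeR).

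Transcription factors known to act on these genes were read in the same fit. ATF4, which drives amino acid transport and synthesis genes, fell from 309 ± 9.02 to 251 ± 11.8 CPM (SD, n = 3 each), and MYC fell from 291 ± 9.07 to 263 ± 9.40 CPM (adjusted p = 0.00089 and 0.023, edgeR). The log2 fold changes were -0.30 for ATF4 and -0.15 for MYC. For MYC the FPKM of control replicate 1 (53.36) and knockdown replicate 3 (53.05) lay close. The dependence of ATF4 and MYC on the fit is not given here. NFE2L2, which encodes NRF2, went from 131 ± 7.22 to 120 ± 3.44 CPM with overlap (log2 fold change -0.12, adjusted p = 0.078, edgeR). Its inhibitor KEAP1 went from 38.9 ± 3.61 to 42.7 ± 2.77 CPM, also with overlap (log2 fold change 0.14, adjusted p = 0.23, edgeR).

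Around the 10 genes, 12 lists of pathway genes held 150 other tested genes. Of these 41 (27.3%, against 22.8% of all genes tested) were called, 15 higher and 26 lower in the knockdown, with a median log2 fold change of 0.011 against 0.010. With library size scaling this turned to 28 higher and 19 lower, and in limma on FPKM to 29 and 20 of 133. The counts of each list stand against the 10.4% of all genes called higher and the 12.4% called lower, and the most abundant gene of a list is the one with the highest mean FPKM. The other carriers of cystine, cysteine and glutamate and partners of SLC3A2 had 4 of 10 tested genes lower and 0 higher (0 also at an unadjusted p below 0.05, in DESeq2 and in limma on FPKM), with a median of -0.08. The glutamine and neutral amino acid carrier SLC38A2 fell from 859 ± 51.8 to 537 ± 19.5 CPM (log2 fold change -0.68, adjusted p = 3.6e-05, edgeR). SLC1A3, a glutamate carrier (-0.39), SLC1A5, a glutamine carrier (-0.32), and SLC38A1 (-0.15) fell as well. SLC38A1 lost its call without knockdown replicate 2 (adjusted p = 0.056), under library size scaling and with the GC trend removed (edgeR). SLC7A5 had the highest level of this list.

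**Figure D5:**
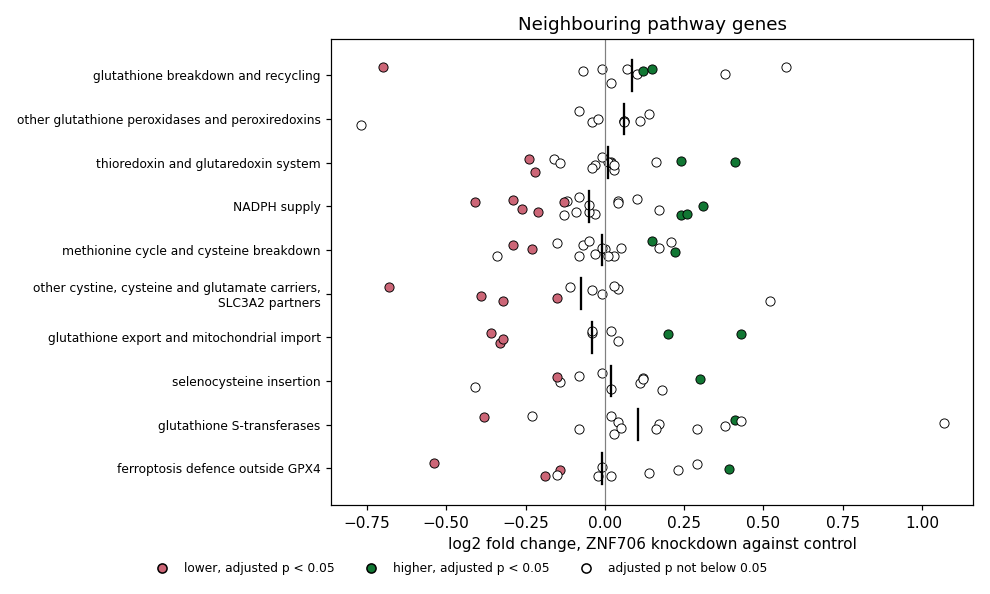
Log2 fold change in knockdown against control of the tested genes of 10 hand-written pathway lists, with 1 circle for each gene, filled red (lower) or green (higher) where the adjusted p was below 0.05, and a black line at the median of each list. Filled circles lie on both sides of 0 in most lists, and the 4 filled circles of the carriers all lie below 0.

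The thioredoxin and glutaredoxin system, which works beside glutathione, had 2 of 15 genes lower and 2 higher (median 0.01). Thioredoxin reductase TXNRD1 fell from 818 ± 28.7 to 691 ± 14.5 CPM (log2 fold change -0.24, adjusted p = 0.00096, edgeR) and sulfiredoxin SRXN1 by 0.22 on the log2 scale. NXN (0.41) and mitochondrial thioredoxin TXN2 (0.24) rose. With the GC trend removed neither was called (adjusted p = 0.055 for NXN and 0.081 for TXN2, edgeR), and with a sample left out NXN was called in 4 of 6 fits and TXN2 in 2. TXN, the most abundant per length with a mean of 345 FPKM, was not called (-0.03). Of the other glutathione peroxidases and peroxiredoxins 0 of 9 were called by edgeR (2 higher at an unadjusted p below 0.05, 1 by DESeq2 and 2 by limma on FPKM). PRDX1 led them with a mean of 420 FPKM.

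Genes of NADPH supply, the reducing power of GSR and TXNRD1, went both ways, with 3 of 19 higher and 5 lower (median -0.05). Cytosolic isocitrate dehydrogenase IDH1 rose from 116 ± 0.681 to 144 ± 3.51 CPM (log2 fold change 0.31, adjusted p = 0.00027, edgeR), while its mitochondrial relative IDH2 fell from 52.9 ± 3.52 to 43.1 ± 1.41 CPM (-0.29, adjusted p = 0.0045, edgeR). Malic enzyme ME1 (0.26) and the pentose phosphate enzyme PGD (0.24) rose. The mitochondrial folate enzymes ALDH1L2 (-0.41) and MTHFD2 (-0.21), H6PD (-0.26) and MTHFD1 (-0.13) fell. With a sample left out ALDH1L2 was called in 4 of 6 fits and MTHFD1 in 2. MTHFD1 lost its call with library size scaling (adjusted p = 0.13, edgeR) and MTHFD2 with the GC trend removed (adjusted p = 0.064, edgeR). TALDO1, with the highest level of the list, was not called (-0.05).

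In glutathione breakdown and recycling 2 of 10 genes were higher and 1 lower (median 0.09). CHAC1, a cytosolic glutathione-degrading enzyme and ATF4 target, fell from 3.22 ± 0.686 to 1.99 ± 0.200 CPM (log2 fold change -0.70, adjusted p = 0.032, edgeR). Its call held in 2 of the 6 fits with a sample left out. The peptidases ANPEP (0.15) and CNDP2 (0.12) rose, in 2 and 1 of those fits, and neither was called with the GC trend removed. GGCT, the most abundant, was not called (-0.07).

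Among methionine cycle and cysteine breakdown genes 2 of 17 were higher and 2 lower (median -0.01). AHCY, which makes the homocysteine that CBS consumes, rose from 193 ± 4.99 to 224 ± 4.93 CPM (log2 fold change 0.22, adjusted p = 0.0019, edgeR), and the aminotransferase GOT2 rose by 0.15 on that scale. MTAP, of methionine salvage (-0.29), and CSAD, of taurine synthesis (-0.23), fell. CSAD was called in 0 of the 6 fits with a sample left out, and not with library size scaling (adjusted p = 0.12, edgeR). MAT2A, the most abundant, was not called (-0.03). Of the glutathione export and mitochondrial import genes 2 of 9 were higher and 3 lower (median -0.04). The mitochondrial carriers SLC25A10 (0.43) and SLC25A11 (0.20) rose, while the carrier SLC25A40 (-0.32) and the exporters ABCC4 (-0.33) and ABCC3 (-0.36) fell. With a sample left out ABCC3 was called in 4 of 6 fits and SLC25A11 in 2, and SLC25A11 lost its call with the GC trend removed (adjusted p = 0.081, edgeR).

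The list written for selenocysteine insertion, a step needed to make GPX4 and GPX1, had 1 of 11 genes higher and 1 lower (median 0.02). The part of each listed gene in that step was not checked. SEPSECS rose (0.30) and SEPHS1 fell (-0.15), and with a sample left out they were called in 2 and 5 of 6 fits. SEPHS1 lost its call with library size scaling (adjusted p = 0.070, edgeR). SEPHS2, the most abundant, was not called (0.11). Of 14 glutathione S-transferases 1 was higher and 1 lower (median 0.10), against 4 and 1 in limma on FPKM. Microsomal MGST3 fell from 163 ± 5.39 to 125 ± 14.3 CPM (log2 fold change -0.38, adjusted p = 0.0044, edgeR). GSTM4 rose (0.41), a call held in 2 of the 6 fits with a sample left out, and its gene family shares sequence between which counting could split reads. GSTP1, the most abundant, was not called (0.02), and GSTA1 had no count in any sample.

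Of 11 genes listed for the control of ferroptosis outside GPX4, 3 were lower and 1 higher (median -0.01), and the higher one, DHCR7, is not a defence gene. Limma on FPKM called 1 lower and 1 higher. GCH1, the first enzyme of tetrahydrobiopterin synthesis, fell from 27.0 ± 1.59 to 18.5 ± 1.39 CPM (log2 fold change -0.54, adjusted p = 0.0013, edgeR). NQO1 (-0.19) and VKORC1L1 (-0.14) fell, each called in 2 of the 6 fits with a sample left out. Neither was called with library size scaling (adjusted p = 0.079 and 0.15, edgeR), and with the GC trend removed VKORC1L1 was at -0.07 (adjusted p = 0.24, edgeR). DHCR7, which consumes the radical-trapping sterol 7-dehydrocholesterol, rose from 99.4 ± 2.69 to 130 ± 6.10 CPM (0.39, adjusted p = 0.00030, edgeR). PRDX6, the most abundant, was not called (-0.02).

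Of 40 tested glutathione metabolism genes, which include GSR and others of the 10, 4 were higher and 7 lower (median 0.05) by the table's own KEGG annotation, against 7 and 8 in DESeq2 and 10 and 7 in limma on FPKM. The 7 called lower by edgeR include the ribonucleotide reductase genes RRM1 and RRM2 and the polyamine enzyme ODC1, named after their values were seen. Of 38 cysteine and methionine metabolism genes 3 were higher and 2 lower (median 0.02), against 6 and 2 in DESeq2, 10 and 1 in limma on FPKM, and 10 and 4 at an unadjusted p below 0.05. Among those called by edgeR were AMD1 (0.18) and BCAT1 (-0.12). BCAT1 was not called by DESeq2 (adjusted p = 0.087), and with the GC trend removed its log2 fold change was 0.00 (edgeR). The most abundant genes of these annotations, GPX1 and LDHA, were not called.

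The identity of the cells was read from marker genes. Of the 7 epithelial genes KRT7, KRT8 and KRT18 were at 337, 193 and 271 FPKM on average in the control group, while KRT19 (0.463 FPKM), EPCAM (0.127 FPKM), CDH1 (0.293 FPKM) and CLDN4 (0.963 FPKM) were below 1 FPKM. Defining hepatocyte genes were low as well, with ALB at 2.63 FPKM and HNF4A at 0.133 FPKM there, though the samples are labelled liver. The summed level of the hepatocyte list was 23.3, 45.4 and 53.8 CPM in the control samples and 26.3, 26.1 and 12.7 CPM in the knockdown samples, with SERPINA1 (-1.47) and APOB (-0.98) called lower and 0 of 14 higher. DESeq2 called 4 lower and 0 higher, and at an unadjusted p below 0.05 there were 6 lower and 0 higher. Of the epithelial genes KRT7, the most abundant, fell (-0.48) and CLDN4 rose (1.08).

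Some markers of other cell types were at levels like those of the cystine transporter's light chain. The leukocyte list, with 6 of its 7 genes in the table, summed to 50.8, 51.8 and 49.2 CPM in the control samples and to 73.5, 74.0 and 74.8 CPM in the knockdown samples. This came from CD68, the most abundant at 10.6 FPKM in the control group (log2 fold change 0.64), and CSF1R (0.49), both called higher, while PTPRC, which defines leukocytes, had 8, 8 and 0 counts in control cells and 0 in each knockdown sample. Of 5 fibroblast genes COL1A1 (0.20, 7.05 FPKM in the control group) and PDGFRB (0.68) rose, from sums of 87.0, 79.4 and 82.6 CPM to 94.7, 97.2 and 95.4 CPM. Of 2 tested endothelial genes CDH5 fell (-0.70), while PECAM1 overlapped between the groups and was not called (0.15, adjusted p = 0.54, edgeR). The endothelial list summed to 13.6, 14.9 and 16.3 CPM with the vector against 11.2, 12.6 and 13.1 CPM with the knockdown. VWF, which was not tested, had 0, 11 and 4 counts with the vector against 4, 20 and 5 with the knockdown. The part of these markers in the results above was not tested.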

How the data were processed

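RNA from 3 control and 3 ZNF706 knockdown samples of LM3 cells was sequenced on an Illumina NovaSeq system. The authors mapped reads with HISAT2, and the submitters' processing notes name cutadapt 1.9, FastQC and GRCh38. The counting program, annotation release and strand are not given in the sources used here. The deposited table holds raw counts per gene, as whole numbers, and FPKM, which the authors scaled to gene length and library size. GENCODE release 29 holds 32092 of its genes, 99.88% of them at overlapping positions.

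After filterByExpr and TMM scaling, counts were fitted with glmQLFit and the group term tested with glmQLFTest (edgeR 4.0.16, R 4.3.3), with no other covariate and Benjamini-Hochberg adjustment over 18390 genes. Each standard error was derived from the fold change and its F statistic, and 95% intervals use the fit's degrees of freedom. Samples of a group differed by more than sampling noise (chi-square of at least 12.8 per gene with a mean count of at least 50). Alternatives were DESeq2 1.42.0, its size factors, library size, dropping the filter or asking for a mean count of 50, limma 3.58.1 on log2(FPKM + 0.1) with a mean FPKM of at least 1, a loess trend on GC content, the replicate number as a block and each sample left out. Sums of near-identical copies were added after the data were seen.

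The 10 genes, lists and tests were chosen with earlier results of these data known. Besides these 10, ZNF706 and 4 regulators, each list's most abundant gene and up to 4 called genes with the largest change are named, and other names were chosen after their values were seen. Counts were simulated for 17879 genes, of which 99 were changed by 0.3 and 97 by 1 on the log2 scale. The fit recovered 23.2% of the former and 64.9% of the latter. The changed genes were drawn from all levels of expression and were far fewer than the 4192 genes called in the data. These shares therefore do not give the recovery to be had for the 10 genes.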

Additional observations from a re-analysis of the deposited data

How the results depend on the processing

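GSR was called lower under all 14 alternatives, and SLC7A11 kept its sign under them but lost its call in 5. Its log2 fold change was -0.16 with the GC trend removed, -0.23 in limma on FPKM and -0.29 without a filter, and between -0.35 and -0.21 with each sample left out. The count of the 10 genes called lower was 1 in those first 3 fits (10.2%, 13.5% and 5.55% of all genes tested were lower there) and 1 to 3 with a sample left out (7.85% to 10.2% of all genes), and the count called higher was 1 with library size scaling. All genes called numbered 2648 to 3424 with a sample left out, lowest without knockdown replicate 2, against 4192. Library size scaling made 64.4% of calls rises, against 45.5%. Signs turned without any call for GPX1 (-0.05 with the GC trend removed, -0.02 without control replicate 1 and without knockdown replicate 3), GPX4 (-0.01 with the GC trend removed) and GCLC (-0.01 without control replicate 2), with ranges over the fits with a sample left out of -0.02 to 0.10 for GPX1 and -0.01 to 0.06 for GCLC. The cause was not tested. Of the 41 other pathway genes called, 24 were called in every fit with a sample left out and 32 with the GC trend removed, and 23 in all of these, DESeq2 and library size scaling. BCAT1 did not keep its sign.

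Control and knockdown samples share replicate numbers only. The correlation of deviations between same-numbered samples was 0.03, -0.04 and -0.02, and not every sample correlated best with its own number. With the replicate block, the log2 fold change of SLC7A11 was -0.29 (adjusted p = 0.0023, edgeR), 2 of the 10 genes were lower and 0 higher, and 1967 genes were higher and 2394 lower in all. For the FPKM ratios, the difference was -0.43 to -0.27 for SLC7A11 to SLC3A2 and 0.16 to 0.25 for GCLC to GCLM with a sample left out. With the GC trend removed, an alternative chosen after seeing the data, these were -0.16 and 0.15. At this depth, a gene that was not called may still have changed, within the interval given.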
